A study of Danio rerio with 8 samples.

Results

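Cluster 4 (c4) was a group of 82 of the 646 single skin cells that the authors divided into clusters c1 to c5, and its members were taken as the authors assigned them. It held 12.7% of the cells (exact Clopper-Pearson 95% interval 10.2 to 15.5), against 194 cells in c1, 176 in c2, 122 in c3 and 72 in c5. All cells came from the flank dermis of untreated adult zebrafish that carried the reporters pnp4a:palmmCherry and pnp4a:nlsEos, and each cell had been sorted for both reporters. By the methods, 4 fish were used with 2 pooled in each dissociation, so no cell can be traced to a fish. Of the 8 plates, 4 held cells of the dark band of the skin, the stripe, and 4 held cells of the light band, the interstripe. The values used here pool all plates within a cluster. By the study, c4 held cells of both bands, more of them from the interstripe than from the stripe. The values give no plate, band or fish for a single cell of c4, so no value below has a replicate check and none was tested. The clusters were also drawn from the same expression values, and differences between them are therefore descriptions. Errors are SDs over cells, and the intervals of shares cover counting error only.

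Iridophores are the reflective pigment cells of fish skin, which stack crystals of purine, mostly guanine, into mirrors. They arise from the neural crest, and they need pnp4a, a purine nucleoside phosphorylase, and transcription factors such as Tfec and the Alx4 pair. In a sequenced single cell most genes that a cell transcribes leave no read, so the number of genes found in a cell depends both on what the cell holds and on how deeply and evenly it was read.

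Cells of c4 had many more genes with a value above 0 than those of any other cluster. A gene is called detected or found below where its corrected count was above 0. Whether its raw count was also above 0 was not tested. A cell of c4 held on average 1395 genes with a value above 0, whereas a cell of c1 held 788.8, of c2 739.6, of c3 846.1 and of c5 815.0. The 4 other clusters thus lay close together and c4 stood apart from them. The value behind each detection, ln(corrected count + 1), was in turn smallest in c4. It averaged 1.56 in c4, and 2.04, 1.70, 2.005 and 2.12 in c1, c2, c3 and c5. Summed over all features, the means came to 2174 in c4 and to between 1256 in c2 and 1731 in c5 elsewhere. By the methods, cells outside set lower and upper limits on detected features and on counts were left out before clustering. The corrected counts come from a method that adjusts each cell's counts for its depth. The read depth of each cell before correction is unknown here, and the part of depth in these numbers was not tested.

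Detection in c4 was broad as well as frequent. In c4, 607 features reached 50% of cells or more, against 157 to 196 in the other clusters. At least 90% of c4 cells held 139 features, against 16 to 32 elsewhere. Every cell of c4 held the same 32 features, 5 of them cytosolic ribosomal protein genes, and only 3 to 9 features were found in every cell of another cluster. The whole table lists 19914 features, of which 17523 had at least 1 cell of c4.

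Features found in a single cell of a cluster show the corrected count behind 1 detection. Of the 3938 features found in 1 cell of c4 alone among its cells, 41.9% had a corrected count of 1 there, and their median corrected count was 2. In the other clusters that share was 79.7% in c1, 65.5% in c2, 73.4% in c3 and 72.6% in c5, and the median was 1 in each. A lone detection in c4 thus carried a higher corrected count than a lone detection elsewhere, although the detections of widely found genes carried lower ones.

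**Figure D1:**
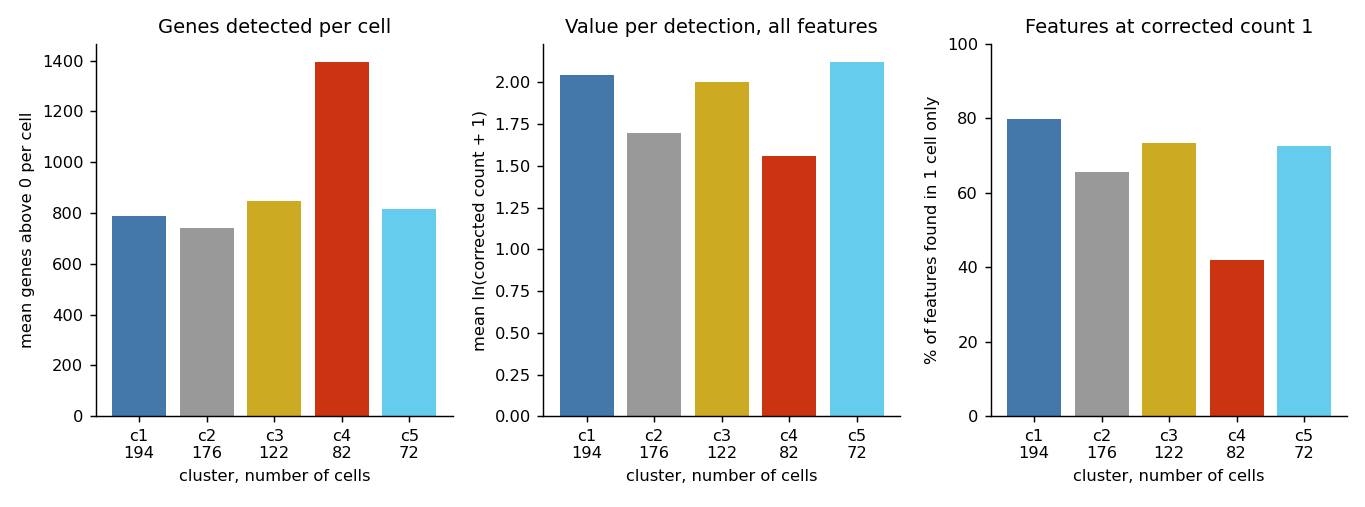
Bars give, for clusters c1 to c5 with the number of cells under each, the mean number of genes with a value above 0 per cell, the mean ln(corrected count + 1) per detection, and the percent of features found in 1 cell only that had a corrected count of 1 there. Cluster c4 has the tallest bar for genes per cell, 1395 genes, and the lowest for the other measures, 1.56 and 41.9%.

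The genes compared below are the 1467 features found in at least 10% of all cells. Nearly all of them reached a larger share of cells in c4: 99.7% were found in a larger share of c4 cells than of the other 564 cells pooled, and 98.3% in a larger share than in each of the other clusters alone. Their median share was 42.7% of c4 cells and 15.2% of the other cells. Where they were expressed, 93.8% had a lower value in c4, with a median of 1.18 over expressing cells of c4 and 2.34 over those of the other clusters. By cluster, that median was 2.53 in c1, 1.86 in c2, 2.45 in c3 and 2.58 in c5, so c2 lay next to c4. The same 10% rule let 287 features pass that were found in under 10% of cells outside c4, and 1 of these was called higher in c4, namely birc6. Some members of the gene lists below are among the 287, such as gch2, foxd3 and hmgb2b.

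Genes of like mean, up to a mean of 3, therefore differed between c4 and the other clusters in how the mean was made up. Among genes with a mean between 1 and 2 natural log units, the median gene was found in 87.8% of c4 cells with an SD over all cells of 1.09 (210 genes). In c1 the median gene of the same band was found in 48.5% of cells with an SD of 1.68 (151 genes), and in c2, the nearest to c4, in 70.7% with an SD of 1.503 (116 genes). Among genes with a mean of 0.5 to 1, the median shares were 56.1% in c4 and 24.7% in c1, and at 2 to 3 the median share was 97.6% in c4, 88.9% in c2 and 72.2% to 79.5% in the others. Where expressed, the median gene with a mean of 1 to 2 had a value of 1.55 in c4 and 2.90 in c1, so that a like mean was made of many low values in c4 and of fewer high values in c1. This did not hold for genes with a mean of 3 or more. Their median value where expressed was 4.43 in c4 (19 genes) and 3.77 to 3.97 in the other clusters (10 to 31 genes). For 43.1% of the genes the SD over all cells was smaller in c4 than in each other cluster, and the median SD over expressing cells was 0.91 in c4 and 1.25 in c1.

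Most differences of mean were small. The mean over all cells was higher in c4 than in the other clusters pooled for 1128 of the 1467 genes (76.9%), with a median difference of 0.08 natural log units. A difference of at least 0.5, the size used for a call, was reached by 63 genes in the higher direction (4.29%) and by 38 in the lower direction (2.59%). Genes with low means elsewhere lay mostly above 0 and genes with high means elsewhere mostly below it, with the exceptions described next. Just inside the higher limit stood birc6 (0.50) and dido1 (0.51), and just outside it kmt2bb (0.499), eef1da (0.497) and huwe1 (0.49). Just inside the lower limit stood rpl37 at -0.50 and sdc4 at -0.51.

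**Figure D2:**
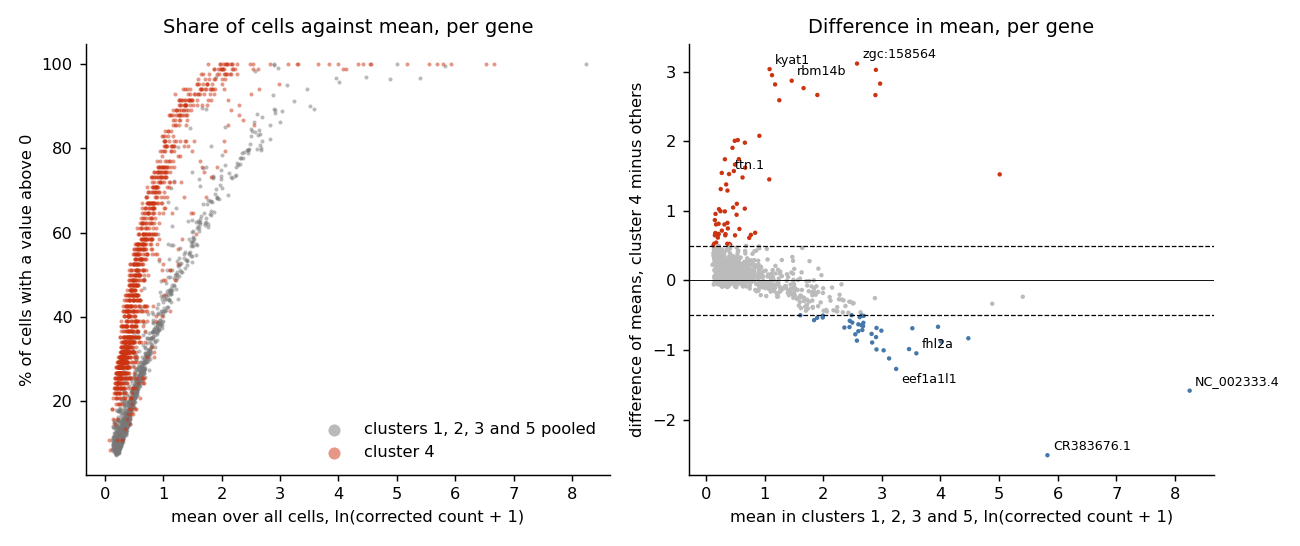
Each point is 1 of the 1467 genes. In the left panel the share of cells in which a gene was found, in percent, is plotted against the mean over all cells, in ln(corrected count + 1), for c4 in red and for the other clusters pooled in grey, and at a given mean most red points lie above the grey ones. In the right panel the difference of means, c4 minus the others, is plotted against the mean in the others, with dashed lines at 0.5 in either direction, and 63 points lie above the upper line and 38 below the lower line.

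A set of 49 genes had a mean in c4 at least 0.5 above that of each other cluster (3.34% of the genes). They were chosen by their mean in c4, so their values there are a description. Of the 49, 47 had a higher value over expressing cells in c4 than in each other cluster, and 45 had a larger share of cells. Over all 1467 genes, 6.07% had both a larger share and a higher value in c4 than in the others pooled, a different count that is given as a description. The median gene of the set was found in 76.8% of c4 cells with a value of 2.54 where expressed, against 41.5% and 1.93 in c2, 36.1% and 1.31 in c3, 29.4% and 1.14 in c1, and 23.6% and 0.99 in c5. The set was not confined to c4, as for 42 of the 49 genes every cluster had the gene in 10% of its cells or more.

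The order of the clusters was much the same across this set. Cluster c2 was next highest for 45 of the 49 genes and c5 was lowest for 41, and the full order c4, c2, c3, c1, c5 held for 35. Among all 468 genes whose mean was highest in c4 by any size (31.9% of the genes), c2 was next highest for 92, c3 for 161, c5 for 121 and c1 for 94. Of the 49 genes, 17 bear only a clone name or placeholder, which gives no function.

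The leading named gene was kyat1 (ENSDARG00000023645), which encodes a kynurenine aminotransferase, an enzyme of tryptophan breakdown. Its mean over all cells was 4.12 ± 1.23 in c4, 1.84 ± 1.28 in c2, 0.90 ± 0.99 in c3, 0.73 ± 0.78 in c1 and 0.54 ± 0.60 in c5. It was found in 81 of the 82 cells of c4, 98.8% (93.4 to 100.0), and in 67.2% of the other cells. It was thus common in every cluster and set c4 apart by its level, with c2 between c4 and the rest. Of the other members of the list of kynurenine pathway and aminotransferase genes, 18 were measured, and none of them was found in enough cells to be compared.

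The gene zgc:158564 (ENSDARG00000052244), named KIAA0232 in the reference names, was found in all 82 cells of c4 and in 98.2% of the others. Its mean was 5.69 ± 0.77 in c4, 3.50 ± 1.22 in c2, 2.39 ± 1.01 in c3, 2.12 ± 1.00 in c1 and 1.86 ± 0.79 in c5. Here the SD over cells was smallest in c4, where the level was highest.

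The RNA-binding protein gene rbm14b (ENSDARG00000103834) was found in all cells of c4 and in 84.8% of the others. Its mean was 4.33 ± 1.29 in c4, 2.12 ± 1.28 in c2, 1.45 ± 1.06 in c3, 1.102 ± 0.84 in c1 and 0.86 ± 0.67 in c5. The mammalian protein is a part of paraspeckles, nuclear bodies built around a long noncoding RNA. On the list of splicing and RNA binding genes, rbm14b was the 1 of 27 compared genes that reached a difference of 0.5 in either direction. Over all genes, 4.29% reached it in the higher direction and 2.59% in the lower. The list was drawn by gene name and lacks smndc1, a splicing factor gene described below, with a difference of 1.74.

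Titin is the giant spring protein of the muscle sarcomere, and the zebrafish gene ttn.1 (ENSDARG00000000563) was found in 62 of 82 cells of c4, 75.6% (64.9 to 84.4), against 29.1% of the others. Its mean was 1.92 ± 1.63 in c4, 0.62 ± 1.05 in c2, 0.33 ± 0.60 in c3, 0.31 ± 0.61 in c1 and 0.18 ± 0.34 in c5. Unlike the genes above, it was absent from a good part of the c4 cells, and its SD there was large. The second titin gene, ttn.2, had a mean of 1.72 ± 1.63 in c4 and 0.15 to 0.68 in the other clusters, and near-identical stretches of these neighbouring copies could share reads.

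Further genes that most exceeded every other cluster were found in nearly all cells of c4. The linker histone gene h1m, known in zebrafish for its supply by the egg, had a mean of 4.57 ± 0.85 in c4 and 1.19 to 2.83 elsewhere. The gene bsnb, whose mammalian counterpart Bassoon is a scaffold of presynaptic terminals, had 3.996 ± 1.22 against 0.50 to 1.86. The claudin gene cldn17, of a family of tight junction proteins, had 5.55 ± 0.75 against 2.34 to 3.56. In each of the 3, c2 was next highest.

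The CTP synthase gene ctps1a, of pyrimidine nucleotide synthesis, had a mean of 2.50 ± 1.52 in c4 and 0.24 to 0.86 elsewhere, and it was found in 92.7% of c4 cells and 36.2% of the others. Another 4 of the leading genes bear clone names. They are BX324216.3 (5.92 ± 0.70 in c4), CU929418.1 (5.80 ± 0.93), BX323564.1 (4.08 ± 1.14) and BX530091.1 (3.84 ± 1.26), and in each of them c2 was again next, at 3.73, 3.76, 1.91 and 1.86.

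Among the rest of the 49 were regulators of transcription and RNA, some of which are named here after their values were seen. The gene nfe2l2a encodes the oxidative stress factor Nrf2 and had a mean of 2.53 ± 1.298 in c4 and 0.95 to 1.24 elsewhere. The histone acetyltransferase gene crebbpb had 1.63 ± 1.48 against 0.36 to 0.66. The splicing factor gene smndc1 had 2.30 ± 1.50 against 0.31 to 0.74, and the mRNA decapping gene dcp1a had 2.29 ± 1.53 against 0.36 to 1.05. A clone-named feature, CT956002.2, was found in every cell of every cluster, with 6.53 ± 0.90 in c4 and 4.64 to 5.47 elsewhere, so that its difference lay in level alone.

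**Figure D3:**
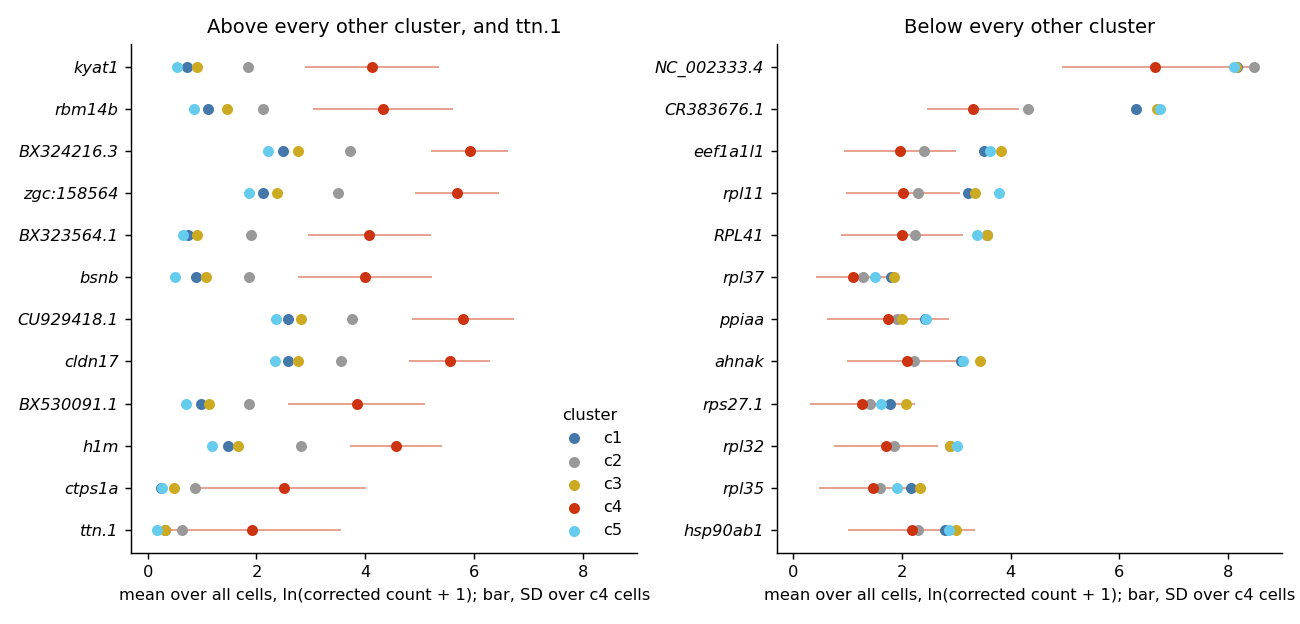
Points are means over all cells of each cluster, in ln(corrected count + 1), and red bars the SD over c4 cells. The left panel shows ttn.1 and 11 of the 12 genes that most exceeded every other cluster in c4, each with c2 in grey as the next highest, and the right panel the 12 genes furthest below every other cluster, led by NC_002333.4 and CR383676.1.

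Only 32 genes had a mean in c4 below that of each other cluster (2.18%), and 2 of them were lower by at least 0.5 (0.136%). The first was CR383676.1 (ENSDARG00000099970), which the reference names list as malat1, a long noncoding RNA that stays in the nucleus. It was found in all 82 cells of c4 with a mean of 3.31 ± 0.84, against 4.31 ± 2.26 in c2, 6.31 ± 1.63 in c1, 6.69 ± 1.25 in c3 and 6.75 ± 0.66 in c5. With a difference of -2.51 from the others pooled, it was the feature with the lowest difference of all. It was thus low in c4 without being missing from any of its cells.

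The other feature was NC_002333.4, whose name begins with that of the mitochondrial genome sequence although the methods state that mitochondrial features were removed. Its mean was 6.66 ± 1.71 in c4, 8.48 ± 0.48 in c2, 8.16 ± 0.46 in c1, 8.14 ± 0.42 in c3 and 8.10 ± 0.39 in c5. It was found in every cell, and c4 was both the lowest and the most variable of the clusters. The SD over c4 cells was far larger than that in any other cluster.

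The remaining genes furthest below every other cluster were mostly genes of translation, found in nearly all c4 cells at low values. The translation elongation factor gene eef1a1l1 had a mean of 1.97 ± 1.03 in c4, 2.40 ± 1.86 in c2, 3.51 ± 1.77 in c1, 3.82 ± 1.46 in c3 and 3.62 ± 1.55 in c5. The ribosomal protein gene RPL41 had 2.003 ± 1.12 in c4 and 2.23 to 3.57 elsewhere, and rpl11 had 2.03 ± 1.05 against 2.29 to 3.78. In each of these genes the gap to c2 was small beside the SDs. The large scaffold gene ahnak had 2.09 ± 1.11 against 2.23 to 3.44, and the chaperone gene hsp90ab1 had 2.18 ± 1.16 against 2.30 to 2.99.

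Cytosolic ribosomal protein genes as a group were found in more cells of c4 and at lower values there. Of 94 measured, 78 were compared, and 0 were called higher and 11 lower, against 4.29% and 2.59% of all genes. Their median share was 91.5% of c4 cells and 64.5% of the others, and their median value over expressing cells was 1.57 in c4 and 2.59 in the others. The median difference of their means was -0.17, but it was 0.14 against c2 alone and -0.31 against c1, c3 and c5, and -0.03 after centring on genes of like level. Between c2 and the lowest of c1, c3 and c5 lay 43 of the 78, where 17.6% of all genes lay, and 14 lay below every cluster.

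The 7 most abundant iridophore genes were found in 97.6% or more of c4 cells, with means below those of c1, c3 and c5 and above that of c2, while other members of the list were found in fewer cells. Of 17 listed, 16 were measured and 13 were compared, and 0 were called higher and 5 lower, against 4.29% and 2.59% of all genes. The 5 were fhl2a, gpnmb, defbl1, apoda.1 and pnp4a. Relative to c2 the same 5 had higher means in c4. Among the 13, fhl3a was found in 7.62% of cells outside c4 and passed only through c4. The median difference was -0.23 from the others pooled, -0.79 from c1, c3 and c5, 0.42 from c2, and -0.04 after centring on genes of like level. In 8 of the 13 the c4 mean lay between c2 and the lowest of c1, c3 and c5, where 17.6% of all genes lay.

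The reporter's own gene, pnp4a, was found in 81 of 82 cells of c4, 98.8% (93.4 to 100.0), and in 75.6% to 82.8% of the cells of the other clusters. Its mean was 1.87 ± 1.00 in c4, 1.55 ± 1.52 in c2, 2.75 ± 1.88 in c5, 2.86 ± 1.87 in c3 and 2.91 ± 1.96 in c1. Over expressing cells it was lowest in c4, at 1.90, with 2.05 in c2 and 3.46 to 3.66 in the others. It had the largest share and the smallest SD in c4, and for each other cluster the c4 mean lay within 1 SD of that cluster's cells around its mean.

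The gene gpnmb, whose product is a membrane glycoprotein found in melanosomes, had a mean of 1.92 ± 1.07 in c4, 1.80 ± 1.67 in c2, 3.15 ± 1.65 in c5, 3.33 ± 1.72 in c1 and 3.70 ± 1.47 in c3. It was found in 97.6% of c4 cells and 88.3% of the others. The LIM-domain gene fhl2a was found in all cells of c4, with a mean of 2.54 ± 1.15 there, 1.81 ± 1.52 in c2, 3.62 ± 1.76 in c3, 4.58 ± 1.93 in c1 and 5.21 ± 1.54 in c5. Both means lay between c2 and the other clusters, gpnmb closer to c2 than fhl2a, which differed from c2 by 0.73.

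Transcription factors of the lineage were found in larger shares of c4 than of any other cluster. The gene alx4a was detected in 87.8% of c4 cells (78.7 to 93.99) and 59.0% of the others (54.9 to 63.1), with means of 1.39 ± 1.03 in c4 and 1.00 to 2.17 elsewhere. Its relative alx4b was found in 70.7% (59.6 to 80.3) and 36.7% (32.7 to 40.8), with means of 0.88 ± 0.93 in c4 and 0.46 to 1.13 elsewhere. The gene tfec was found in 39.0% (28.4 to 50.4) and 14.0% (11.2 to 17.1), with means of 0.36 ± 0.63 in c4 and 0.21 to 0.45 elsewhere. The differences of their means from the other clusters pooled were -0.12, 0.06 and 0.03, but alx4a was higher in c4 than in c2 and alx4b and tfec were lower than in c1, c3 and c5 pooled, and 98.3% of all compared genes had their largest share in c4. The receptor gene ltk was found in 3 c4 cells and ednrba in 1, and alx1 in none. Taking 3 cells as the limit for a count of 0, this allows a share of cells with a detection of up to 3.66%. These 3 genes were rare in every cluster.

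**Figure D4:**
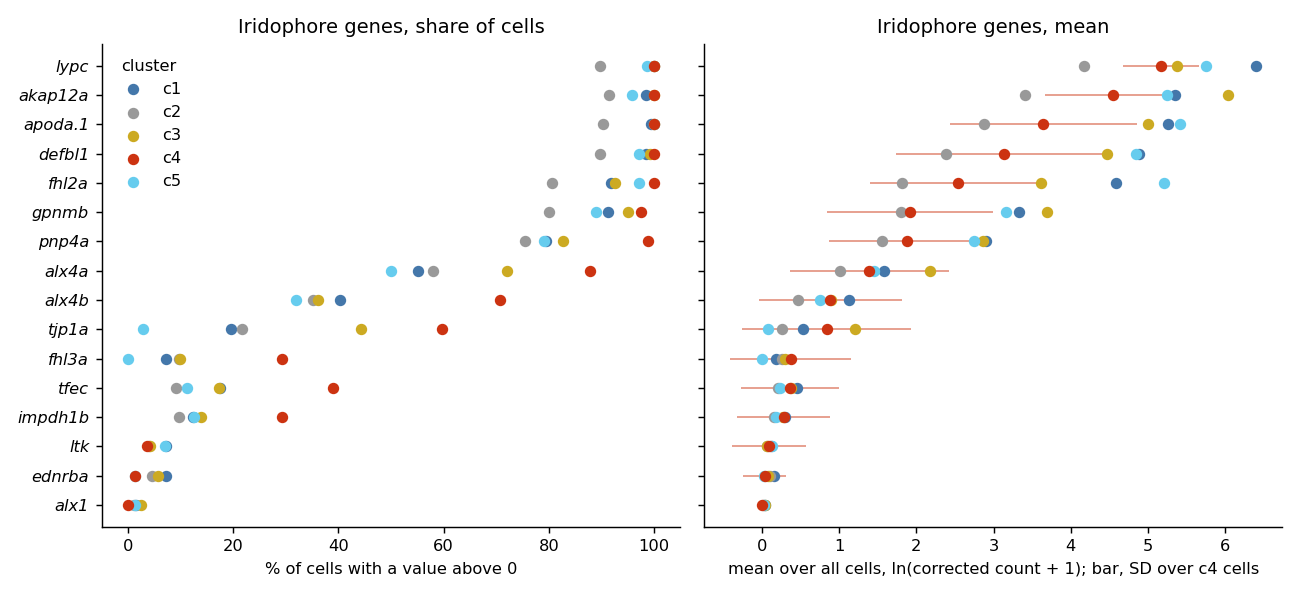
For the 16 measured iridophore genes, points give the share of cells in which the gene was found, in percent (left) and the mean over all cells in ln(corrected count + 1) with the SD over c4 cells as a red bar (right), for c1 to c5. The share in c4 is at 97.6% or more for the upper 7 genes, while the c4 mean of each of these 7 lies below c1, c3 and c5 and above c2.

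Genes that the study discussed for the skin bands were each found in more than 50% of c4 cells, in a setting where 98.3% of all compared genes had their largest share in c4. Tight junction protein gene tjp1a was found in 59.8% of c4 cells (48.3 to 70.4), 44.3% of c3 cells and 2.78% of c5 cells, with means of 0.83 ± 1.097, 1.21 ± 1.59 and 0.07 ± 0.52. The retinol dehydrogenase gene rdh5 was found in 57.3% of c4 cells (45.9 to 68.2), 49.2% of c3 cells and 2.78% of c5 cells, with means of 0.58 ± 0.68, 1.45 ± 1.68 and 0.05 ± 0.39. Both genes were therefore found in no smaller a share of c4 cells than of c3 cells, at lower values.

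Another retinol dehydrogenase gene, rdh10a, had the opposite order between c3 and c5. It was found in 53.7% of c4 cells (42.3 to 64.7), 40.3% of c5 cells and 9.02% of c3 cells, with means of 0.61 ± 0.86, 1.29 ± 1.75 and 0.22 ± 0.86. The summary values do not say whether these 3 genes were found in the same cells.

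Genes of skeletal muscle were examined because titin marked c4, so the values of the titin genes here are a description and say nothing of the list. Of 43 listed, 37 were measured and 3 compared (ttn.1, ttn.2 and tpm1), with a median difference of 1.38 that rests on the titin genes. Tropomyosin gene tpm1, whose isoforms also bind actin outside muscle, had a mean of 1.69 ± 1.56 in c4 and 0.42 to 1.04 elsewhere. The abundant genes of the muscle fibre, chosen after their values were seen, were found in few cells of any cluster. The skeletal actin genes acta1a and acta1b were found in 4.88% and 2.44% of c4 cells and in 1.77% and 0.89% of the others. The myosin light chain genes myl1 and mylpfa were found in 3.66% and 1.22% of c4 cells and in 0.53% and 1.77% of the others. The creatine kinase gene ckma was found in 2.44% of c4 cells and 1.42% of the others, the parvalbumin gene pvalb2 in 2.44% and 0.53%, and pvalb4 and mylz3 in no c4 cell and 1.24% of the others.

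Some other genes of the sarcomere and its calcium channels, also chosen after their values were seen, were found more often. The nebulin gene neb was found in 24.4% of c4 cells and 7.80% of the others, the ryanodine receptor gene ryr1a in 19.5% and 5.32%, and the calcium channel gene cacna1sa in 12.2% and 3.01%. Others of the list differed less. The second ryanodine receptor gene ryr1b was found in 9.76% of c4 cells and 4.96% of the others, but in 11.4% of c2 cells. The myosin-binding protein gene mybpc2b was found in 3.66% and 2.84%. Over the 37 genes the summed mean was 8.75 in c4 and 1.51 to 3.84 in the other clusters. Of the sum in c4, 1.92 came from ttn.1 and 1.72 from ttn.2, which prompted the list, and 1.69 from tpm1. Over all measured members, compared or not, 29 of the 37 were found in a larger share of c4 cells than of the others. On the same base the count was 131 of 185 zinc finger genes and 221 of 353 solute carrier genes. In other lists it ran from 26 of 73 mitochondrial ribosomal protein genes to 89 of 94 cytosolic ribosomal protein genes. The count over all features was not made. The part of muscle RNA in these values was not tested.

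Markers of the other cells of the skin were checked as whole lists. Of 13 xanthophore genes measured, 11 were found in c4 and csf1ra and pax7b in none of its cells, and the summed mean was 1.77 in c4 and 0.59 to 1.95 elsewhere. Of the 13, 7 were found in a larger share of c4 cells than of the others. The compared pax7a was found in 39.0% of c4 cells and gch2, of pteridine synthesis, in 30.5%, against 11.2% and 8.33% of the others. The gene gch2 passed only through c4, and 98.3% of all compared genes had their largest share in c4. The third compared gene, scarb1, was found in 11.0% and 10.6%. Others went the opposite way, such as aox5 (4.88% and 5.14%) and slc2a11b (1.22% and 4.43%). Of 12 melanophore genes all were found in c4, but trpm1b was the 1 with more than a few cells (93.9% against 67.6%), tyrp1b was in 3 cells and dct in 2, and the summed mean was 2.05 against 1.79 to 2.49. The summed means of both lists thus lay within the range of the other clusters.

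Of 19 dermal fibroblast genes, 18 were found in c4 and dpt in none of its cells. Their summed mean was 4.42 in c4 and 1.999 to 2.93 elsewhere. The gene sparc was found in 75.6% of c4 cells and 38.5% of the others, col5a1 in 41 of the 82 and 16.1%, and col5a2a in 31.7% and 10.8%. Their means in c4 were 1.13 ± 1.19, 0.67 ± 1.14 and 0.31 ± 0.62, against 0.80 to 1.01, 0.20 to 0.61 and 0.16 to 0.44 elsewhere. The mean of col5a2a in c4 thus lay below those of c3 and c5. Of 54 collagen genes, 5 were compared and 0 were called, where 4.29% of all genes were called higher and 2.59% lower. The median difference of the 5 was 0.31. Of these, col6a3 was found in 9.40% of cells outside c4 and passed only through c4. The basement membrane collagen gene col4a1 had a mean of 0.97 ± 1.01 in c4 and 0.38 to 0.71 elsewhere. Of the type I collagen genes of the dermis, chosen after their values were seen, col1a2 was found in 18.3% of c4 cells and 5.67% of the others, col1a1b in 13.4% and 5.32%, and col1a1a in 4.88% and 5.67%. The part of fibroblast RNA in these values was not tested.

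Of 20 keratinocyte genes, 18 were found in c4 and cldne and krt1-c5 in none of its cells, with a summed mean of 5.82 in c4 and 4.71 to 5.56 elsewhere. The simple keratin gene krt8 and icn were compared, and both had means in c4 below every other cluster but close to c2. The mean of krt8 was 2.19 ± 1.17 against 2.26 in c2 and up to 2.92. That of icn was 1.729 ± 1.13 against 1.732 in c2 and up to 2.11. They were found in 98.8% and 93.9% of c4 cells, and in 84.0% and 73.2% of the others. Of 17 neural crest and glial genes, 16 were found in c4 and sox9b in none, and the summed mean was 1.88 against 1.33 to 2.28. The crest factor sox10 was found in 57.3% of c4 cells and 25.0% of the others, with means of 0.57 ± 0.66 in c4 and 0.47 to 0.88 elsewhere.

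Most blood, vessel and nerve markers were found in few c4 cells. Of 13 immune genes, 11 were found in c4 and the macrophage genes mpeg1.1 and marco in none, with a summed mean of 0.92 in c4 and 0.39 to 0.92 elsewhere. The most widely found was coro1a, a gene of the actin coat of white blood cells, in 18.3% of c4 cells and 6.74% of the others. All 15 endothelial genes were found, none in over 9.76% of c4 cells, with a summed mean of 1.19 against 0.31 to 0.61. All 11 neuronal genes were found, none in over 11.0%, with 0.77 against 0.22 to 0.28. Of 4 erythrocyte genes, 3 were found, with 0.11 against 0.02 to 0.06. None of the genes of these 4 lists was found in enough cells to be compared, and the part of such cells in the values of c4 was not tested.

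Few genes of proliferation were found in enough cells to be compared. Of 27 measured, 3 were compared, and 0 were called, where 4.29% of all genes were called higher and 2.59% lower. The median difference of the 3 was -0.01. That median is the difference of hmgb2b, which was found in 9.93% of cells outside c4 and passed only through c4. Of the 27, 23 were found in a larger share of c4 cells than of the others. On the same base the count was 171 of 228 ion channel genes and 78 of 93 motor protein genes. It was 26 of 73 for mitochondrial ribosomal protein genes. The count over all features was not made, so 23 of 27 is a description. The replication clamp gene pcna was found in 11.0% of c4 cells and 5.14% of the others, the topoisomerase gene top2a in 6.10% and 2.84%, and mki67 in 2.44% and 2.84%, these 3 having been chosen after their values were seen. The summed mean of the list was 3.56 in c4 and 1.71 to 3.51 elsewhere.

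Chromatin and transcription regulators mostly had their highest mean in c4, by small differences. Of 17 compared, 15 had a mean in c4 above that of every other cluster, where 31.9% of all genes did, and 1, crebbpb, was called higher, where 4.29% of all genes were. Their median difference was 0.27, and it was 0.26 against c1, c3 and c5, 0.30 against c2 and 0.15 after centring. The median over all genes was 0.08. The filter on share counts c4 cells too, and the median share of the 17 genes outside c4 was 11.5%, against 15.2% for all genes. Members with a low share outside c4 can thus have passed through their share in c4, which favours a high mean there. How many did so was not counted here, so the comparisons of this list with all genes are descriptions. The histone methyltransferase genes kmt2bb and kmt2ca had means of 0.89 ± 1.202 and 0.49 ± 1.05 in c4, against 0.32 to 0.45 and 0.13 to 0.24 elsewhere. Zinc finger genes had a median difference of 0.19 over 8 genes, of which zbtb1 was called higher.

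Housekeeping groups lay near the median of all genes, of which 4.29% were called higher and 2.59% lower. Oxidative phosphorylation genes had 41 compared and 0 called, with a median difference of 0.07 that was -0.01 against c1, c3 and c5, and a median share of 43.9% of c4 cells against 16.0% of the others. Translation factors had 26 compared, 0 called higher and 1, eef1a1l1, called lower, with a median of 0.09. Proteasome genes had a median of 0.10 over 10 genes, and those of the vacuolar ATPase and lysosome 0.06 over 13. Mitochondrial ribosomal protein genes had 73 measured and 0 compared, and they were found in a median of 2.44% of c4 cells and 2.48% of the others. In this last group, 26 of the 73 genes had a larger share in c4.

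Purine synthesis supplies the crystals of the iridophore. Of 28 genes measured 13 were compared, and 0 were called higher and 1, pnp4a, lower, against 4.29% and 2.59% of all genes. The median difference was 0.15. That median is the difference of guk1a, which, with adsl, ppat and prps1a, was found in under 10% of cells outside c4. These members passed only through c4, so the median is a description and is not set against that of all genes. The synthesis genes paics and gmps had means of 0.62 ± 1.03 and 0.73 ± 0.94 in c4, against 0.20 to 0.57 and 0.27 to 0.87 elsewhere. Immediate early genes had 18 compared, with a median difference of 0.06 that was -0.04 against c1, c3 and c5. Of the 18, 1 was called lower, where 2.59% of all genes were. That gene was fosab, with a mean of 2.27 ± 1.15 in c4, 2.24 in c2, 2.83 in c1, 3.01 in c3 and 5.23 in c5, so that it stood apart in c5 more than in c4.

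**Figure D5:**
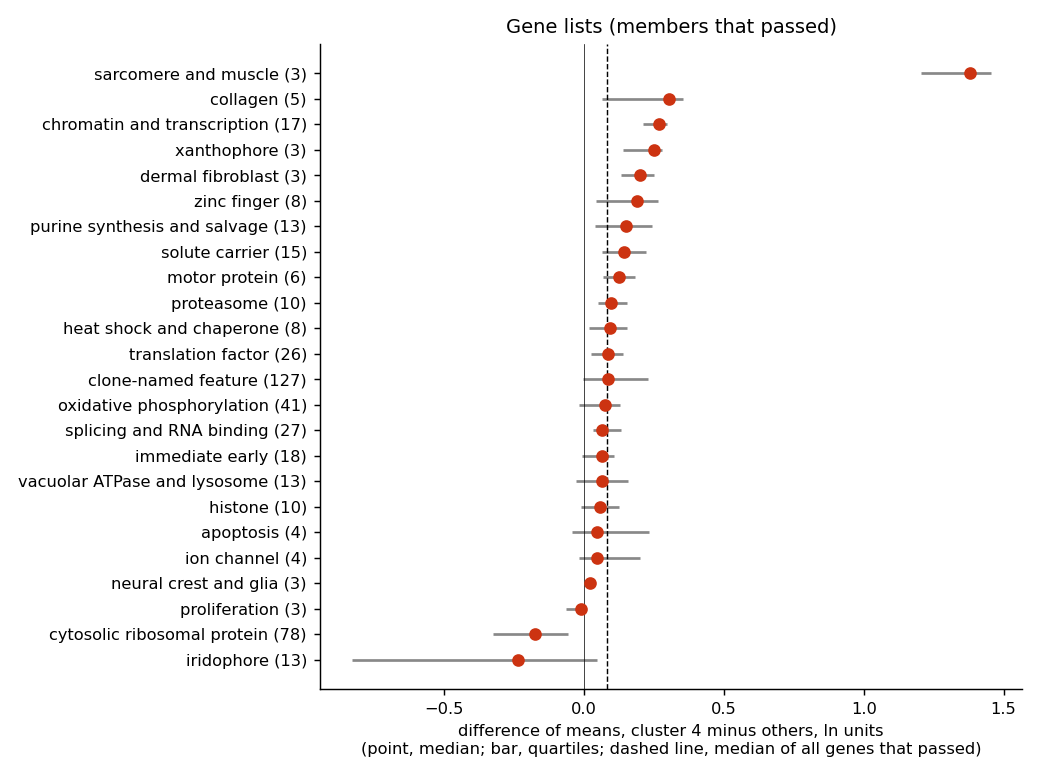
For each gene list with at least 3 compared members (their number in parentheses), the point is the median and the bar the quartiles of the difference of means, c4 minus the other clusters, in natural log units, with the median of all genes as a dashed line at 0.08. Sarcomere and muscle genes lie at 1.38 on 3 genes, of which ttn.1 and ttn.2 prompted the list, and cytosolic ribosomal protein and iridophore genes lie left of 0 at -0.17 and -0.23.

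Few features were missing from c4 that other cells held in numbers. In all, 2391 of the 19914 features were found in none of its cells, against 923 in c1, 1103 in c2, 1878 in c3 and 4883 in c5, a number that was larger the fewer cells a cluster had. The most widespread of those missing from c4 were fnbp4 and comtb, each found in 40 of the other 564 cells (7.09%, interval 5.11 to 9.53), where 0 of 82 allows a share of cells with a detection of up to 3.66% by the limit of 3 cells and 4.40% by the exact interval. They were followed by dyrk3 in 6.03%, cflara in 5.85% and rab34b in 5.67% of the other cells. Over the expressing cells outside c4, the 5 genes had values of 1.26 to 1.82.

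In the opposite direction, 1 feature was found in c4 and in no other cell. This was CR931782.2, named si:dkey-14f19.3 in the reference names, in 5 cells of c4, 6.10% (2.01 to 13.7). Among the compared genes, 3 were found in a smaller share of c4 cells than of the other cells pooled. The chaperone and disulfide isomerase gene p4hb was 1 of these, in 8.54% of c4 cells and 11.0% of the others, and the other two, CR376825.1 and CABZ01044764.1, bear clone names. They were chosen after their values were seen.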

How the data were processed

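Single cells from 8 plates were sequenced by the authors. By the methods and the submitters' processing notes, reads were prepared with bcl2fastq 2.20, trimmed with Cutadapt, aligned and counted with STAR on GRCz11, filtered for low quality, normalized with SCTransform and clustered in Seurat. For every gene, the deposited table states how many cells each cluster had, which percent of them expressed the gene, and the mean with its SD across expressing cells. These the authors gave as natural log values, ln(corrected count + 1). Another deposited table holds the authors' comparison of c5 with c3 (fold changes and p-values) and was not used. Depth per cell is unknown.

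Means over all cells were the percent multiplied by the mean of expressing cells, and SDs were rebuilt likewise and tested on simulated data. Differences are c4 minus the other clusters pooled by cell number, for features in at least 10% of all cells, called at 0.5 natural log units. Members and lists were chosen with earlier results of these data known. Named genes were the 4 given markers, the 12 genes furthest above and the 12 furthest below every other cluster, the 5 with the highest mean in c4, up to 3 members per list, the 5 features most widely found outside c4 alone or in c4 alone, and 8 genes named by the study. Of the genes so chosen, 1 is not reported here. Of 19914 identifiers, 18929 were found in the reference names, and 108 symbols were shared by more than 1 feature. Python 3.11.15, numpy 2.4.6, pandas 2.3.3, scipy 1.17.1 and matplotlib 3.10.9 were used. Alternatives were other limits on share and size, other reference clusters, equal weights and centring within 20 bins of level.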

Additional observations from a re-analysis of the deposited data

How the results depend on the processing

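The direction of a difference depended mainly on the reference. Against c2 alone, 121 genes were called higher and 2 lower, the median of all genes moved from 0.08 to 0.22, and the differences of pnp4a (0.32), gpnmb (0.12), defbl1 (0.75), fhl2a (0.73), myo5b (0.40) and fosab (0.025) changed sign, as did the medians of iridophore (0.42) and ribosomal protein genes (0.14). Against c1, c3 and c5, 69 were called higher and 77 lower, with medians of -0.79 and -0.31 for these lists. After centring within bins of level, 61 were higher and 8 lower, with medians of -0.042 and -0.028. The share of calls in the higher direction was 62.4% as reported, 98.4%, 47.3% and 88.4% under these settings, and 52.5% (42 higher, 38 lower) among features in at least 25% of all cells. At a difference of 1, 33 were higher and 6 lower. The iridophore median was -0.46 at a share of 25% and -0.10 with no filter, and the muscle median 0.78 at 5% and 0.024 with no filter, where most members are found in few cells. Genes detected per cell of c4 came to 725.1 over the filtered features. Over 143 named genes, the sign of the difference changed under at least 1 of the other references, weights or centring for 35 genes. By setting, it changed for 20 against c2, 9 against c1, c3 and c5, 3 with equal weights, and 17 of the 99 with a centred value. Of the 35, the 6 above had been called. Other genes called lower also had a higher mean in c4 than in c2, among them apoda.1 (3.64 and 2.87) and lgals2a (2.83 and 2.02). No paired analysis was possible because the tables pool the plates, and leaving out plates could not be run for that reason. Depth per cell, and the plate and band of single c4 cells, were not used here, and their part in the differences was not tested.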

Other observations

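The table holds 8 features whose names begin with that of the mitochondrial genome sequence. Of these, NC_002333.17, chosen after its values were seen, had the opposite order to NC_002333.4, with a mean of 1.39 ± 1.46 in c4 and 0.72 to 1.13 in the other clusters, and it was found in 81.7% of c4 cells and 38.8% of the others. Whether it shares reads with another feature was not tested.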
